A study of Mus musculus with 69 samples.

Results

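The genes described here encode the subunits of the oxidative phosphorylation complexes in the mitochondrial inner membrane. They were chosen by gene symbol alone, from the usual name stems of nuclear-encoded subunits: Nduf followed by a, b, c, s or v and a number for complex I, Sdha to Sdhd for complex II, Uqcr and Cyc1 for complex III, numbered Cox4 to Cox8 genes for complex IV and Atp5 for complex V. The pattern matched 83 of the 24537 genes listed in each expression table, and 79 of these had at least 1 TPM (a transcript level scaled for transcript length and library size) in at least 2 libraries of every table. The 79 members comprised 35 subunits of complex I, 4 of complex II, 9 of complex III, 13 of complex IV, 15 of complex V and 3 related proteins whose symbols fit the pattern (Cox7a2l, Atp5s and Atp5sl). Of the 4 that failed, Cox7b2 and Cox8c were listed at 0 in every library, Cox8b reached at most 0.248 TPM, and Ndufa4l2 at most 0.462 TPM.

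RNA was measured in bone marrow-derived macrophages of female mice aged 8 to 12 weeks, grown from marrow with macrophage colony-stimulating factor and then left basal or given 20 ng/ml interleukin-4 (IL-4), the cytokine that drives alternative macrophage activation. The 61 libraries tested formed 3 tables. The first held basal cells and cells after 24 h of IL-4 from 5 inbred strains, the laboratory strains C57BL/6J (C57), BALB/cJ (BALB) and NOD/ShiLtJ (NOD) and the wild-derived strains SPRET/EiJ (SPRET) and PWK/PhJ (PWK), with 3 libraries in each group except basal PWK, which had 2. The second was a time course in C57 and SPRET (basal, 1, 6 and 24 h of IL-4, 2 libraries each). The third had the same times, with 2 libraries each, in Egr2 fl/fl mice (Egr2WT) and LyzM-Cre Egr2 fl/fl mice (Egr2MKO), in which Cre expressed from the myeloid lysozyme M gene deletes the transcription factor gene Egr2; both genotypes carry the floxed allele. A further 4 libraries came from F1 macrophages of C57 crossed with SPRET (2 basal, 2 after 24 h of IL-4) and gave separate values for the alleles of each parent, which are described without a test. The values are TPM as deposited, each table was normalised on its own, and levels are therefore set side by side only within a table.

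Oxidative phosphorylation couples the oxidation of NADH and succinate to ATP synthesis. Complexes I and II pass electrons through ubiquinone to complex III, cytochrome c carries them to complex IV, where oxygen is reduced, and complex V uses the resulting proton gradient to make ATP. A few subunits of complexes I, III, IV and V are encoded by mitochondrial DNA and are not members. Macrophages activated by IL-4 are known for relying on mitochondrial respiration and fatty acid oxidation, in contrast to the glycolytic state of macrophages activated by bacterial products.

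The nuclear subunit genes are known targets of a small set of ubiquitous transcription factors, among them NRF1, YY1, ETS factors such as GABP, and the oestrogen-related receptor ERRalpha. RefSeq promoters on GRCm38.p6, from 250 bases before to 50 bases after each start, were matched by symbol to 67 of the 79 members and gave 73 promoters. The NRF1 motif (GCGC, any base, then TGCGC), read on both strands like the other motifs, was present in 18 of the 73 (24.7%), against 4.6% of all 32851 promoters of this length. The ETS motif CCGGAAG was present in 16 (21.9%, against 8.86%), the YY1 motif AANATGGC in 19 (26%, against 6.05%) and the ERRalpha motif CAAGGTCA in 4 (5.48%, against 1.56%). A match describes the letters of the window only, and no binding was measured at these genes here. Promoters of 4 genes on which the results turn are printed 5′ to 3′ on the strand of the gene, with motif letters in capitals: Atp5b and Uqcrc1 (called higher after 24 h of IL-4 in every strain on TPM as deposited, but not in every strain after median-ratio scaling), Ndufs8 (lower in Egr2MKO after 24 h) and Cox7a2l (lower after IL-4 while most members rose in SPRET).
Atp5b, chr10:128083057-128083356, plus strand, a YY1 match: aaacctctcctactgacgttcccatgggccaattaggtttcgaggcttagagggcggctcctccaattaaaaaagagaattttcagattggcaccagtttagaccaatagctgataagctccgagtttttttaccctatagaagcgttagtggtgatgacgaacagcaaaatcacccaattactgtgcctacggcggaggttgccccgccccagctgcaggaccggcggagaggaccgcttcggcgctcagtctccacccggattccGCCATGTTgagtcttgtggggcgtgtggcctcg
Uqcrc1, chr9:108936398-108936697, plus strand, NRF1 matches: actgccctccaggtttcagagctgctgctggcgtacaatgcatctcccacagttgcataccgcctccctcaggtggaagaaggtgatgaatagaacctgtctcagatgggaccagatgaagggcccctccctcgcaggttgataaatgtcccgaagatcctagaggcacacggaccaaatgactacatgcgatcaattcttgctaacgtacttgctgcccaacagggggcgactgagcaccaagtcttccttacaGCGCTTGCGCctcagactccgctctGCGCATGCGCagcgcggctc
Ndufs8, chr19:3912725-3913024, minus strand, a YY1 match and an ETS match: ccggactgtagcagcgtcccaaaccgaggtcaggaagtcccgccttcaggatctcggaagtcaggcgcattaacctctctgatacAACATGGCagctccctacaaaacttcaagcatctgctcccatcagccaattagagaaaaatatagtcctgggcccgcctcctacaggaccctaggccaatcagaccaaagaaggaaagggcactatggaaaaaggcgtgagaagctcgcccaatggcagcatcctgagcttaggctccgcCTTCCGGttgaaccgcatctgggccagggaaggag
Cox7a2l, chr17:83514284-83514583, minus strand, no match: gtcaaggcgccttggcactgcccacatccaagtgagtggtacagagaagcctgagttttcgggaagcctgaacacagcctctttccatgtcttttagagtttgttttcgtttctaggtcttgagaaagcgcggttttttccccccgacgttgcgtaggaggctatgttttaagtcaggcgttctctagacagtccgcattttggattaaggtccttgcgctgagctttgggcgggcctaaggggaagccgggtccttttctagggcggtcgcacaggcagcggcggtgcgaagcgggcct

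The libraries held 7020000 to 22500000 tags (rounded) in the strain table, 5700000 to 24000000 in the time course and 4690000 to 32900000 in the Egr2 table, and arrived as TPM without counts per gene. All 8 macrophage markers checked, among them Csf1r, Adgre1 and Lyz2, passed 1 TPM in at least 1 library of every table, and the B cell, T cell and erythroid markers checked stayed under 1 TPM in every library. The targeted gene, Egr2, was low in each library labelled Egr2MKO. It was at 23.6 and 21.3 TPM in basal Egr2WT and at 0.859 and 0.854 TPM in basal Egr2MKO, and after 24 h of IL-4 at 101 and 99.5 TPM in Egr2WT and at 4.72 and 7.05 TPM in Egr2MKO. No label says whether libraries of 1 group came from separate animals, so the p-values measure the spread between these libraries, which may be technical. In bulk RNA of this kind, fewer cells of a type and less RNA per cell cannot be told apart.

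The members were abundant genes. In basal C57 macrophages of the strain table their median level was 135.9 TPM, with quartiles at 74.7 and 258.5 TPM. On this per-length scale the highest were Atp5e (the epsilon subunit of ATP synthase) at 759 TPM, Cox6b1 (a complex IV subunit) at 582 TPM and Atp5b (the catalytic beta subunit of ATP synthase) at 499 TPM. The lowest were Atp5g2 at 0.414, Cox7c at 1.00 and Atp5l at 1.35 TPM, all of them far lower in C57 than in SPRET. Summed over the members, the 3 basal C57 libraries held 13545, 13029 and 14007 TPM, and the 3 basal SPRET libraries 17172, 16702 and 17320 TPM.

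**Figure D1:**
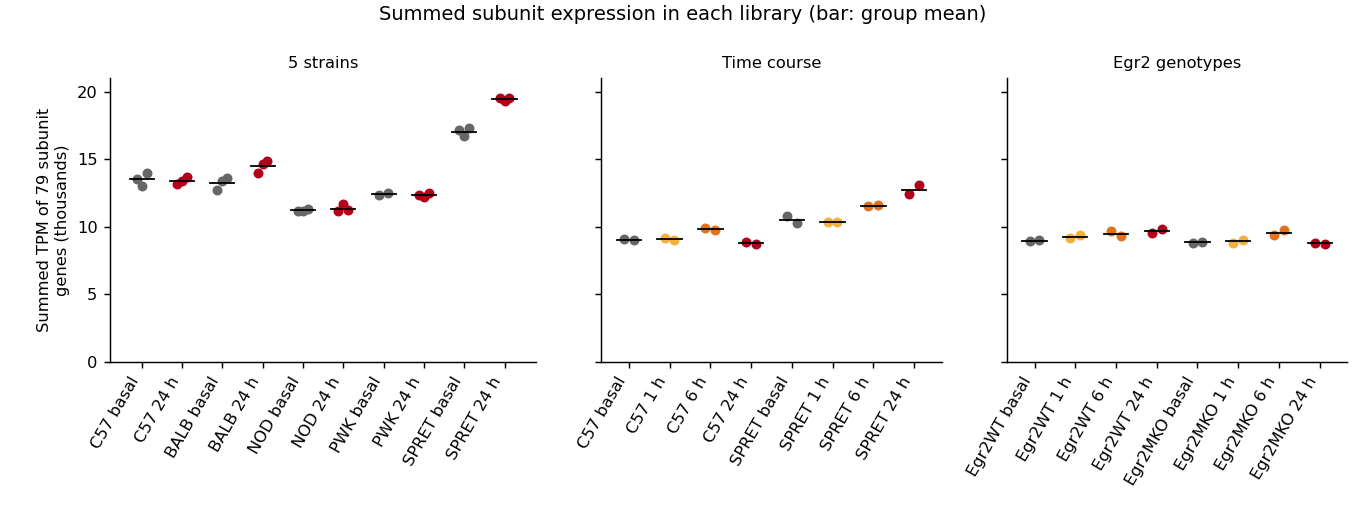
Summed TPM of the 79 oxidative phosphorylation members, in units of 1000 TPM (y axis, linear, from 0) in each library of the 3 tables, 1 point per library coloured by hours of IL-4, by group (x axis), with a bar at the group mean. In the strain table SPRET held 19303 to 19564 TPM after 24 h of IL-4, above its basal libraries at 16702 to 17320 TPM, while C57 held 13159 to 13733 TPM after IL-4 and 13029 to 14007 TPM at basal.

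The first comparison asks how 24 h of IL-4 changed the members within each strain. In SPRET, 50 of the 79 members rose (63.3%) and 1 fell, against 31.4% of all 11907 genes tested rising and 12.9% falling. The median log2 change of the members was 0.230, beside 0.108 for all genes, and the middle of the members lay between 0.14 and 0.32, so the rise was broad and small. By complex, 26 of 35 members of complex I, all 4 of complex II, 6 of 9 of complex III, 5 of 13 of complex IV and 9 of 15 of complex V rose. The single member that fell was Cox7a2l, which helps join complexes III and IV into supercomplexes. Calls here and below are an adjusted p under 0.05 from limma's test on log2(TPM + 1), adjusted over all genes of the table with the Benjamini-Hochberg method, and log2 changes are on that scale, which understates changes of low genes.

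Uqcrc1, a core subunit of complex III, showed the pattern in SPRET. It stood at 150.2, 150 and 153.9 TPM in the basal libraries and at 250.5, 252.2 and 243.9 TPM after IL-4. The libraries did not overlap, and the log2 change was 0.71 (SE 0.041, adjusted p = 2.0e-13). Atp5b moved from 620.3, 620 and 615.2 TPM to 866.9, 866.5 and 855.5 TPM in SPRET (log2 change 0.48), and from 511.7, 483 and 502.1 to 576.9, 565.3 and 564.2 TPM in C57. Both genes were called higher in all 5 strains on TPM as deposited, and no other member was. After scaling each library to the median ratio over genes, neither was called in NOD, and Uqcrc1 was not called in PWK. Uqcrb, a ubiquinone-binding subunit of complex III, had the largest called rise in SPRET, from 53.54, 44.8 and 56.03 TPM to 79.47, 93.33 and 98.26 TPM (log2 change 0.80, SE 0.089, adjusted p = 5.5e-08). In C57 the same gene was lower after IL-4, at 84.66, 76.72 and 70.92 TPM against 93.57, 96.99 and 90.65 TPM at basal. Cox7a2l in SPRET was at 261.5, 257.7 and 277.4 TPM at basal and at 193.7, 182.4 and 199.9 TPM after IL-4, without overlap (log2 change -0.47, SE 0.055, adjusted p = 1.3e-07).

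Among core subunits fixed as representatives, those of complexes I, II, III and V given here rose in SPRET. Ndufv1, which binds NADH, rose by a log2 change of 0.33 and Ndufs1, an iron-sulphur subunit of complex I, by 0.49. Sdha and Sdhb, the flavoprotein and iron-sulphur subunits of complex II, rose by 0.25 and 0.22. Uqcrfs1, the Rieske protein of complex III, rose by 0.15 and Cyc1, cytochrome c1, by 0.33. Atp5a1, the alpha subunit of ATP synthase, rose by 0.32. Cox5b was not called (0.08, adjusted p = 0.75). The SPRET counts depended on the scaling: under median-ratio scaling 20 members were called higher and 3 lower, and the 20 were all among the 50. Of the representatives, Sdha, Sdhb and Uqcrfs1 were no longer called, while Ndufv1, Ndufs1, Cyc1, Atp5a1 and Atp5b were.

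The other strains gave smaller counts. In C57, 8 members rose (10.1%, against 15% of all genes) and 13 fell (16.5%, against 20.5%), with a median log2 change of 0.027 beside -0.038 for all genes. Ndufs8 and Ndufv2, both of complex I, had the largest called rises in C57, by 0.37 (SE 0.041, adjusted p = 5.5e-08) and 0.36 (SE 0.088, adjusted p = 0.0023). Ndufb2, an accessory subunit of complex I, fell by 0.66 (SE 0.232, adjusted p = 0.028) and Uqcrh, the hinge protein of complex III, fell by 0.39 (SE 0.068, adjusted p = 6.6e-05). Under median-ratio scaling 9 rose and 7 fell in C57, and Ndufb2 was not called. The other 58 members were not called in this strain.

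In BALB, 24 members rose (30.4%, against 9.45% of all genes) and 4 fell (5.06%, against 24.8%). The median log2 change was 0.088 in the members and -0.111 over all genes, and under median-ratio scaling 40 rose and 1 fell. Uqcrq, a small subunit of complex III, rose most (0.84, SE 0.177, adjusted p = 6.7e-04), followed by Cox5b of complex IV (0.76, SE 0.177, adjusted p = 0.0017). Cox5b was at 60.46, 62.08 and 60.26 TPM in basal BALB and at 78.26, 134.4 and 106.3 TPM after IL-4, so the groups did not overlap but the treated libraries spread widely. Cox7a2l fell by 0.36 (SE 0.055, adjusted p = 1.5e-05) and Atp5sl by 0.31 (SE 0.108, adjusted p = 0.027), of which only Cox7a2l was called under median-ratio scaling. Cox7a2l thus fell in BALB, C57 and SPRET, and the only other member that fell in 3 strains was Ndufv3, a small subunit of complex I, whose call in BALB was lost under median-ratio scaling.

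In NOD and PWK the direction of the counts rested on the scaling. NOD had 18 members higher (22.8%, against 28.2% of all genes) and 3 lower (3.8%, against 6.07%), but 3 higher and 18 lower after median-ratio scaling, where Cox7a1 was not called. The NOD median was 0.074 in the members and 0.123 over all genes. Among the NOD calls, Ndufs1 rose by 0.49 (SE 0.089, adjusted p = 1.5e-04) and Sdha by 0.41, and both were also called higher under the other scaling. Cox7a1, the muscle-type isoform of a complex IV subunit, rose by 0.60 (SE 0.217, adjusted p = 0.035) from 0.883, 2.815 and 3.153 TPM to 3.806, 4.069 and 3.275 TPM, while Ndufs5 fell by 0.35 (SE 0.126, adjusted p = 0.032) and Ndufv3 by 0.24 (SE 0.059, adjusted p = 0.0037), both of them complex I subunits.

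PWK had 9 members higher (11.4%, against 18.6%) and 5 lower (6.33%, against 6.08%), and 2 higher and 8 lower after median-ratio scaling, where Uqcrb was not called. Its medians were -0.010 in the members and 0.084 over all genes. Sdha rose by 0.30 (SE 0.076, adjusted p = 0.0052) and Uqcrb by 0.30 (SE 0.099, adjusted p = 0.03). Cox6a2, the muscle-type isoform of another complex IV subunit, fell by 0.50 (SE 0.122, adjusted p = 0.0032), and Uqcr10 of complex III fell by 0.26 (SE 0.068, adjusted p = 0.0066). The 4 fibroblast markers summed to 202.1 and 210.2 TPM in the basal PWK libraries and to between 105 and 111.5 TPM after IL-4. In C57 and SPRET the sum was at most 5.909 TPM. Of the 4, only Dcn and Pdgfra passed 1 TPM somewhere in the strain table, while Col1a1 and Col3a1 stayed under 1 TPM in every library. The part of these markers in the PWK results was not tested. Without basal PWK replicate 2, which leaves 1 basal library assumed to vary like the others, 5 members were called in PWK in place of 14. Across the 5 strains, on TPM as deposited, 14 members were called in none, and 16 rose in at least 1 strain and fell in another. The same counts were not made over all genes, so they are not read as a trait of the members.

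**Figure D2:**
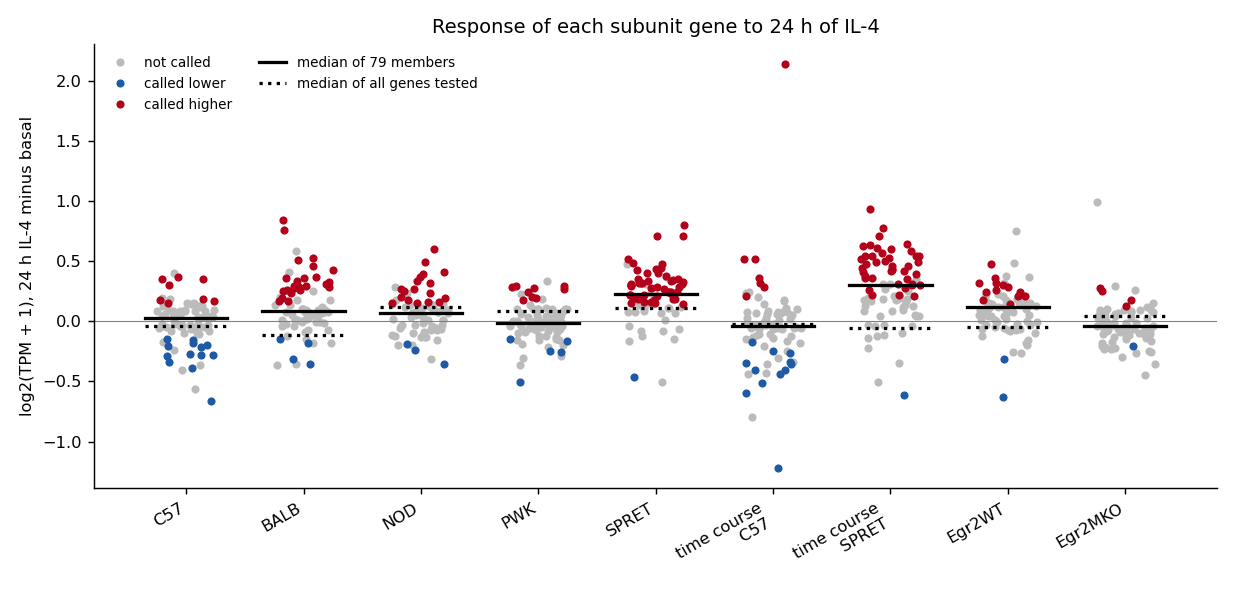
Log2 change of each member after 24 h of IL-4 against basal, on the log2(TPM + 1) scale (y axis), by comparison (x axis), 1 point per gene, red where called higher, blue where called lower and grey where not called at an adjusted p under 0.05. Solid and dotted lines are the medians of the members and of all genes tested. The SPRET points lie mostly above 0 in both tables that hold the strain (medians 0.230 and 0.302), and the C57 points scatter around 0 (medians 0.027 and -0.037).

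Whether the response to IL-4 itself differed between strains was tested as the difference of each strain's log2 change from that of C57. These 4 comparisons share the C57 libraries. In SPRET the response was larger than in C57 for 32 members (40.5%, against 24.4% of all genes) and smaller for 0, while 8.94% of all genes had a smaller response. In that comparison 36 of the 79 had an unadjusted limma p under 0.05. The median difference was 0.186 in the members and 0.156 over all genes, and median-ratio scaling gave 11 larger and 3 smaller. Uqcrb showed the largest called difference, 1.08 (SE 0.126, adjusted p = 3.1e-07), since it rose in SPRET and fell in C57.

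In BALB 20 members had a larger response than in C57 (25.3%, against 5.43%) and 1 a smaller one (1.27%, against 10.4%), and Ndufb2 led (1.25, SE 0.328, adjusted p = 0.01). The smaller one was Ndufv3 (-0.33, SE 0.084, adjusted p = 0.0076), which was not called under median-ratio scaling. Leaving out treated BALB replicate 3 gave 11 calls in place of 21, and leaving out basal BALB replicate 1 or basal C57 replicate 1 gave 12. In NOD 15 were larger (19%, against 26%) and 3 smaller (3.8%, against 7.32%), and the split became 2 and 15 under median-ratio scaling. Uqcrb differed most in NOD (0.67, SE 0.126, adjusted p = 2.7e-04), and Ndufv3 was the smaller of the called extremes (-0.39, SE 0.084, adjusted p = 0.0012). In PWK 10 were larger (12.7%, against 16.8%) and 5 smaller (6.33%, against 5.58%), turning to 1 and 8 under the other scaling. Atp5s, a factor related to ATP synthase, had the largest called difference in PWK (0.74, SE 0.267, adjusted p = 0.048), a call lost under median-ratio scaling, and Cox6a2 the lowest (-0.85, SE 0.163, adjusted p = 4.6e-04). Without 1 PWK or treated C57 library, the 15 calls in PWK went as low as 5.

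The time course asks when the members moved, in separate libraries of C57 and SPRET. After 1 h, 0 members were called in either strain by limma, with 3 at an unadjusted p under 0.05 in C57 and 6 in SPRET, against 2.73% and 4.83% of all 12088 genes called higher and 1.22% and 3.92% called lower. After 6 h, 6 members had risen in C57 (7.59%, against 10.9% higher and 9.55% lower over all genes) and 0 had fallen, and 15 had risen in SPRET (19%, against 16.9%) while 2 had fallen (2.53%, against 13.7%). After 24 h the counts in SPRET were 42 higher (53.2%, against 14.8%) and 1 lower (1.27%, against 21.8%), and in C57 7 higher (8.86%, against 18.2%) and 12 lower (15.2%, against 21.1%). Median-ratio scaling changed the 24 h counts little, to 47 and 1 in SPRET and to 7 and 12 in C57, and made the C57 count at 6 h 5 higher and 1 lower. The median log2 change at 24 h was 0.302 in SPRET, where the median over all genes was -0.054, and -0.037 in C57, where it was -0.019.

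The 6 members that rose by 6 h in C57 were Atp5a1, Atp5g3, Cyc1, Ndufa9, Ndufs8 and Uqcrc1, and of these Atp5a1, Atp5g3, Cyc1, Ndufa9 and Uqcrc1 also rose at 6 h in SPRET. Uqcrc1 in SPRET was at 119.9 and 130.3 TPM at basal, 135.9 and 135.3 TPM at 1 h, 196.6 and 176.9 TPM at 6 h, and 208.2 and 202.7 TPM at 24 h. In C57 it was at 133.9 and 135.9, then 144.1 and 140.5, then 173.7 and 163.5, and at last 177.7 and 170.1 TPM. The 6 h and 24 h libraries lay above the basal ones in both strains, and the rise at 6 h was 0.57 in SPRET and 0.32 in C57 on the log2 scale. Sdhb and Cox7a2l were the members that fell at 6 h in SPRET, by 0.14 (adjusted p = 0.042) and 0.21 (adjusted p = 0.0031).

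**Figure D3:**
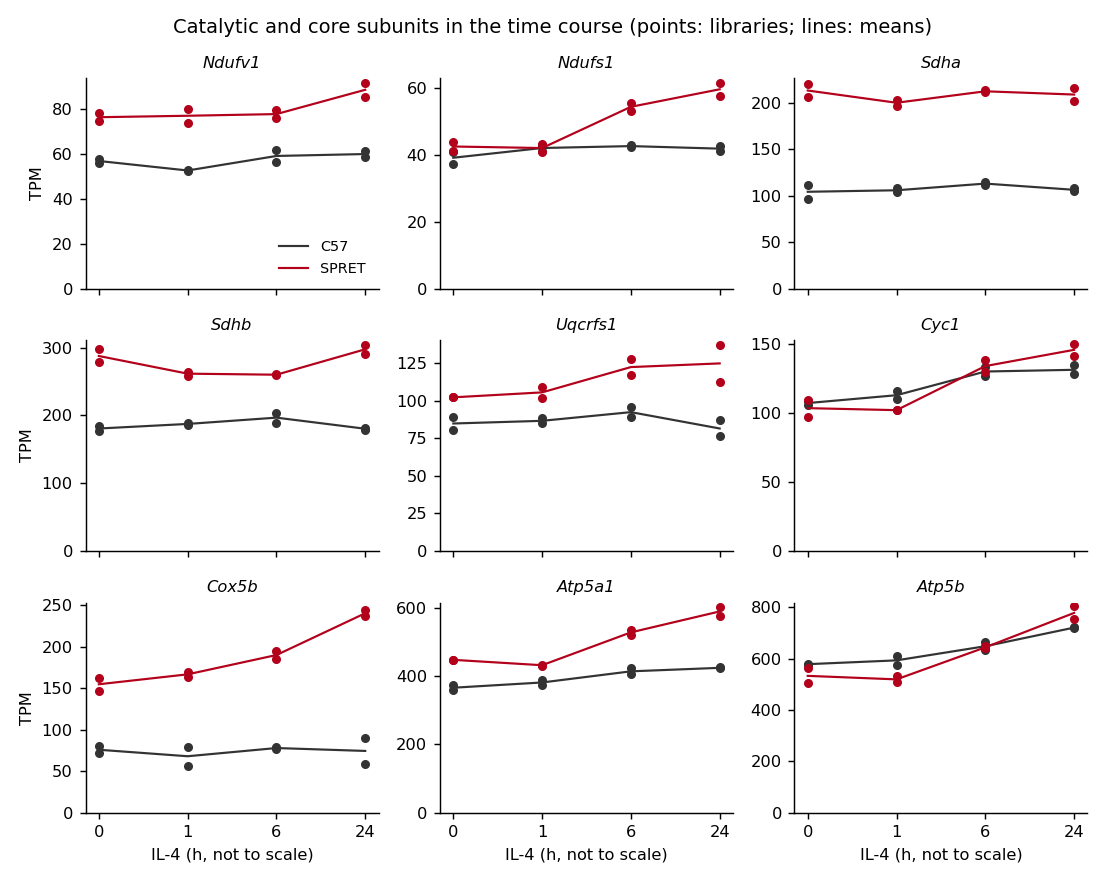
TPM (y axes, linear, from 0) of 9 representative core subunits against hours of IL-4 (x axes, not to scale) in the time course, 1 point per library, with lines through the means of 2 libraries, C57 in black and SPRET in red. Atp5a1 in SPRET climbs from 446.9 and 448.3 TPM at basal to 603.1 and 575.4 TPM at 24 h, while Sdha and Sdhb end near their basal levels.

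The 24 h change of SPRET was seen in both tables, which share no library. Of the 50 members higher in SPRET in the strain table and the 42 in the time course, 36 were shared, which is 72% of the first and 85.7% of the second. They included Ndufv1 and Ndufs1 of complex I, Cyc1 and Uqcrfs1 of complex III, Cox6a1 of complex IV, and Atp5a1, Atp5b and Atp5g3 of complex V. Sdha and Sdhb rose in the strain table but were not called in the time course (-0.03, adjusted p = 0.77, and 0.05, adjusted p = 0.48), and Cox5b was called in the time course alone (0.63). Cox7a2l fell in both, in the time course from 271.1 and 269.7 to 181.6 and 170.9 TPM (log2 change -0.62, SE 0.044, adjusted p = 3.1e-07). Across the 79 members the Pearson correlation of the SPRET changes of the 2 tables was 0.52, a description over genes that are not independent.

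Uqcrh and Cox6a2 had the widest changes of the C57 time course. Uqcrh was at 139.6 and 136.6 TPM at basal, at 140.1 and 146.8 TPM at 6 h, and at 58.71 and 58.81 TPM at 24 h, a log2 change of -1.22 (SE 0.064, adjusted p = 1.9e-08). In SPRET the same gene was at 180.5 and 184.1 TPM at basal and at 170.1 and 184.8 TPM at 24 h, which gave the largest called difference in response, 1.18 (SE 0.090, adjusted p = 1.7e-06). Cox6a2 rose in C57 from 5.903 and 3.782 TPM to 25.66 and 23.07 TPM (log2 change 2.14, SE 0.222, adjusted p = 8.6e-06) and in SPRET by 0.94 (SE 0.222, adjusted p = 0.0052), a difference of -1.20 (SE 0.314, adjusted p = 0.012). In the strain table Cox6a2 rose by only 0.35 in C57 and Uqcrh fell by 0.39, so the sizes differed between tables. Ndufs8 (0.52, SE 0.092, adjusted p = 7.1e-04) and Ndufb3, an accessory subunit of complex I (-0.59, SE 0.087, adjusted p = 1.7e-04), were the next largest called C57 changes, and Ndufa12, another accessory subunit, rose in SPRET by 0.78 (SE 0.204, adjusted p = 0.0096).

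The difference in 24 h response between SPRET and C57 in the time course was positive for 30 members (38%, against 12.8% of all genes) and negative for 2 (2.53%, against 16.1%), with a median of 0.331 beside -0.042 for all genes. Of these 30 and the 32 of the strain table, 16 were shared, among them Atp5a1, Atp5b, Atp5g3, Ndufs1, Uqcrb, Uqcrc1 and Uqcrh. Summed macrophage marker TPM moved too, from 51450 and 54010 TPM at basal to 40430 and 40690 TPM at 24 h in the SPRET time course. In the SPRET strain libraries they went from between 27470 and 28180 to between 26520 and 26870 TPM. In C57 they went from 32450 and 32090 to 21790 and 22730 TPM in the time course. In the C57 strain libraries they went from between 23420 and 24130 to between 16760 and 17980 TPM. The 8 neutrophil markers, of which S100a8, S100a9, Elane, Ngp and Camp passed 1 TPM somewhere in the strain table, summed to between 343.6 and 404 TPM in basal SPRET and between 249 and 273.7 TPM after IL-4, and in C57 to between 106.1 and 130.8 and then between 16.74 and 24.28 TPM. The part of either list in the result was not tested.

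Basal levels were compared between each strain and C57. Against C57, SPRET had 48 members higher (60.8%, against 35.5% of all genes) and 10 lower (12.7%, against 32.9%), with a median difference of 0.268 beside 0.016 over all genes. NOD had 10 higher (12.7%, against 20.1%) and 54 lower (68.4%, against 54.1%), with medians of -0.392 and -0.295, and PWK 15 higher (19%, against 19.7%) and 34 lower (43%, against 41.5%). BALB had 18 higher (22.8%, against 24.8%) and 24 lower (30.4%, against 18.4%). These comparisons also share the basal C57 libraries. Macrophage markers summed to 9780 and 9911 TPM in basal PWK, 17950 to 18860 in NOD, 23420 to 24130 in C57, 27470 to 28180 in SPRET and 29210 to 30300 in BALB. Neutrophil markers summed to 548.4 and 554.7 TPM in PWK, 343.6 to 404 in SPRET, 106.1 to 130.8 in C57, 53.02 to 59.97 in BALB and 40.91 to 52.7 in NOD, and the part of either list in the basal differences was not tested. Median-ratio scaling gave 43 and 10 for SPRET, 20 and 24 for NOD, 21 and 18 for PWK and 10 and 23 for BALB, so the excess of lower calls narrowed in NOD and turned in PWK. Cox6b1 in NOD was called lower on TPM as deposited (-0.14) and called higher under the other scaling. The time course gave 33 higher (41.8%, against 34.3%) and 12 lower (15.2%, against 26.4%) in basal SPRET, and 29 and 20 under the other scaling.

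The widest basal differences lay in a handful of members. Atp5g1, Atp5g2 and Atp5g3 are separate genes for the same mature c subunit, which forms the membrane ring of ATP synthase. Atp5g2 was at 0.412, 0.521 and 0.31 TPM in basal C57 and no higher than 0.834 TPM in basal BALB, against 42.53, 43.42 and 47.4 TPM in NOD, 78.92 and 71.98 TPM in PWK, and 83.8, 85.42 and 86.3 TPM in SPRET. The log2 differences from C57 were 5.01 in NOD (SE 0.159, adjusted p = 4.9e-19), 5.76 in PWK (SE 0.177, adjusted p = 3.0e-19) and 5.93 in SPRET (SE 0.159, adjusted p = 6.0e-21). Atp5g1 was at 11.45, 16.03 and 12.94 TPM in C57 and at 109.2, 118.8 and 121.4 TPM in SPRET, but at most 0.675 TPM in BALB and 0.534 TPM in NOD (log2 differences -3.29, SE 0.136, adjusted p = 3.3e-16, and -3.47, SE 0.136, adjusted p = 3.7e-17). Atp5g3, the most abundant of the set on this per-length scale, was at 326.1, 324.8 and 326.4 TPM in C57, at 231, 231.8 and 263.5 TPM in BALB, at 134.3, 145.9 and 145.1 TPM in NOD, and at 401.9, 395.3 and 402 TPM in SPRET. The strains thus ordered differently for each of the c subunit genes.

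Cox7c of complex IV was at 0.99, 0.376 and 1.637 TPM in basal C57, at 21.76, 22.08 and 20.39 TPM in BALB, at 17.41, 16.74 and 23.47 TPM in NOD, at 1.896 and 1.661 TPM in PWK, and at 70.39, 60.26 and 72.33 TPM in SPRET. The BALB and NOD libraries overlapped, C57 and PWK lay next to each other near the bottom of the scale, and SPRET stood above all. The differences from C57 were 3.53 in BALB (SE 0.189, adjusted p = 6.5e-14), 3.37 in NOD (SE 0.189, adjusted p = 4.1e-14) and 5.15 in SPRET (SE 0.189, adjusted p = 4.5e-18). Atp5l, the g subunit of ATP synthase, was at 24.96, 30.42 and 25.6 TPM in SPRET and at most 3.24 TPM in any basal library of another strain. Cox5b was at 11.96 and 13.1 TPM in PWK, at 104.8, 130.1 and 82.25 TPM in C57, and at 355.3, 342.7 and 354.5 TPM in SPRET, and its PWK difference was -2.96 (SE 0.198, adjusted p = 2.1e-12). Ndufb4, an accessory subunit of complex I, was at 45.74 and 53.49 TPM in PWK and at 8.223, 9.287 and 9.121 TPM in C57 (difference 2.36, SE 0.174, adjusted p = 1.4e-11).

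Lower levels in SPRET were fewer and smaller. Ndufa12 was at 27.84, 21.84 and 27.1 TPM in SPRET against 62.41, 61.61 and 58.2 TPM in C57 (difference -1.22, SE 0.089, adjusted p = 7.0e-12), and Atp5s differed by -0.94 (SE 0.178, adjusted p = 5.3e-05). In PWK, Cox7a2l differed by -1.12 (SE 0.061, adjusted p = 3.6e-14), with 128.7 and 122.5 TPM against 269.2, 261.9 and 293.7 TPM in C57. Cox6a2 was lower in BALB (-1.30, SE 0.109, adjusted p = 4.0e-10), and Cox7a1 higher in BALB (0.56, SE 0.217, adjusted p = 0.04, a call lost under median-ratio scaling) and lower in NOD (-1.55, SE 0.217, adjusted p = 6.6e-07). The time course repeated the SPRET extremes in other libraries: Atp5g2 differed by 5.62 (SE 0.291, adjusted p = 4.7e-09), Cox7c by 4.61 (SE 0.648, adjusted p = 5.0e-05), Ndufa12 by -1.48 (SE 0.204, adjusted p = 4.2e-05) and Uqcrb by -1.67 (SE 0.131, adjusted p = 2.3e-07). Of the members called higher in basal SPRET, 48 in the strain table and 33 in the time course, 25 were shared. Of those called lower, 10 and 12, only 3 were shared. Atp5j2, Cox6a1, Cox7b, Ndufb6 and Ndufb7 were called higher in the strain table and lower in the time course. Ndufc2, Sdhd and Uqcrh were called the other way round. Across the 79 members the differences of the 2 tables had a Pearson correlation of 0.92, a description over genes that are not independent.

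**Figure D4:**
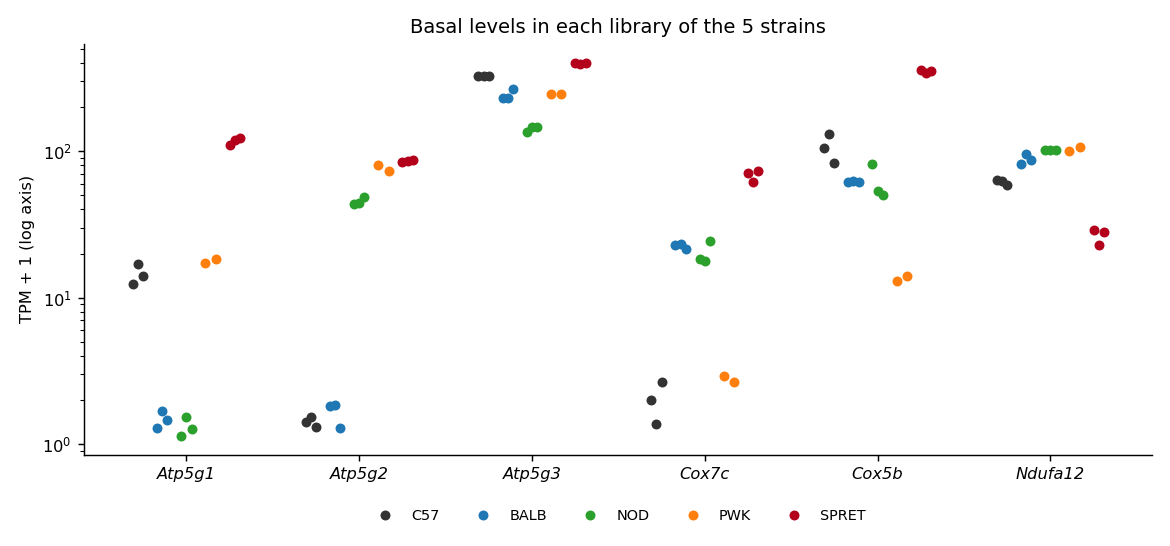
Basal TPM + 1 (y axis, log scale) of the c subunit genes Atp5g1, Atp5g2 and Atp5g3 and of Cox7c, Cox5b and Ndufa12 (x axis), 1 point per library, coloured by strain. Atp5g2 lies under 1 TPM in C57 and BALB and between 42.53 and 86.3 TPM in NOD, PWK and SPRET, and Ndufa12 is lowest in SPRET.

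Several of these genes share transcript sequence with other genes or processed pseudogenes, which bears on how reads were assigned. Counting the 75-base stretches of 1 coding transcript per gene that also occur in a transcript of another gene (GENCODE annotation of the same build), 45 of the 78 members found had none and 33 had some. The shared part was 76% in Atp5l, 50.4% in Atp5g1, 46.3% in Ndufa12, 44.6% in Cox7c, 44% in Atp5g2, 35.2% in Ndufb4, 29.1% in Uqcrb and 20.3% in Cox5b. Levels of these genes are uncertain for that reason. For basal SPRET against C57, the median absolute log2 difference was 0.256 in members without shared stretches and 0.523 in the rest. In the time course it was 0.213 and 0.535. The same medians were 0.168 and 0.202 in BALB, 0.411 and 0.492 in NOD, and 0.251 and 0.325 in PWK. The part of read sharing in these strain differences was not tested. For the 24 h rise in SPRET, members without shared stretches gave 31 higher and 0 lower of 45 (median 0.230). The rest gave 19 higher and 1 lower of 33 (median 0.235). Stretches were sought in annotated transcripts of the reference only, and the part of read sharing in this rise was not tested.

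In the F1 macrophages both parental alleles share 1 cell, and 77 of the 79 members had allele values, which the authors derived by weighting each gene's expression by reads that tell the alleles apart. Of 47 members called higher in basal SPRET with such values, the SPRET allele was the higher in both basal libraries for 38 and the lower in both for 6. The members whose SPRET allele exceeded the C57 allele by more than 2-fold in both were Atp5g1, Atp5g2, Atp5j, Atp5l, Cox6a2, Cox7c, Ndufs3 and Ndufs5. Atp5g1 had log2 allele ratios of 4.14 and 4.12 in the basal libraries, Atp5g2 of 2.72 and 2.65, and Cox7c of 1.89 and 2.41. Cox5b, which was high in the SPRET parent, had ratios of -0.03 and -0.05. Of 9 members lower in basal SPRET, the SPRET allele was the lower in both for 3, among them Ndufa12 at -0.62 and -1.43, and the higher in both for 3. The allele counts were not made over all genes, so they are not read as a trait of the members. Uqcrc1, which rose on IL-4 in both parents, was at 131 and 111 on the SPRET allele and 134 and 119 on the C57 allele at basal, and at 202 and 169, and 194 and 197, after IL-4, in the authors' allele-weighted units.

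The isoform pairs of complex IV kept their order. Cox6a1, the ubiquitous isoform, was at 466.2, 467.2 and 445 TPM in basal C57 and Cox6a2 at 13.17, 17.85 and 12.32 TPM, and in SPRET they were at 600.3, 595.8 and 597.5 and at 98.33, 105.9 and 98.01 TPM. Cox7a2 was at 298.8, 291.9 and 290 TPM in basal C57 and Cox7a1, its muscle-type counterpart, at 5.617, 12.05 and 7.707 TPM. Cox6b1 was at 500 TPM or more in every library of the strain table and Cox6b2, known from testis, at most 2.576 TPM. Cox8a was at 407.5, 476.3 and 393 TPM in basal C57, beside Cox8b and Cox8c near or at 0, and Ndufa4, at 248.5, 240.6 and 275.1 TPM, beside Ndufa4l2, an isoform known from hypoxia, under 1 TPM. The ubiquitous isoform was therefore the higher one in every library of the strain table.

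The last comparison asks how the members responded without Egr2. In Egr2WT, 13 members rose after 24 h (16.5%, against 12% of 12079 genes) and 2 fell (2.53%, against 18.2%), with a median of 0.117 beside -0.048 over all genes, and 23 and 1 were called under median-ratio scaling. In Egr2MKO, 4 rose (5.06%, against 16.2%) and 1 fell (1.27%, against 11.8%), with a median of -0.040 beside 0.047 over all genes, and 3 and 4 under the other scaling. In Egr2WT the largest called rises were those of Ndufs8 (0.48, SE 0.059, adjusted p = 6.3e-05) and Uqcrc1 (0.36, SE 0.049, adjusted p = 1.4e-04), and Atp5sl (-0.63, SE 0.105, adjusted p = 6.5e-04) and Cox7a2l (-0.31, SE 0.094, adjusted p = 0.025) fell, the latter without a call under median-ratio scaling. In Egr2MKO, Ndufb11 (0.28, SE 0.070, adjusted p = 0.01) and Ndufs8 (0.25, SE 0.059, adjusted p = 0.0072) rose, Atp5a1 (0.18) and Atp5b (0.13) were the other members that rose, and Sdhb fell by 0.21 (SE 0.062, adjusted p = 0.027).

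Set directly against Egr2WT at 24 h, Egr2MKO had 17 members lower (21.5%, against 11.5% of all genes) and 1 higher (1.27%, against 25.9%). The median difference was -0.128 in the members and 0.118 over all genes, and all 17 were also called lower under median-ratio scaling, where 34 were lower and 0 higher. Leaving out either 24 h Egr2WT library left 10 calls in all. The 17 were 5 of the 35 members of complex I, 3 of 4 of complex II, 3 of 9 of complex III, 3 of 13 of complex IV and 3 of 15 of complex V. Ndufs8 was at 96.79 and 98.14 TPM in Egr2WT and at 73.77 and 72.5 TPM in Egr2MKO (-0.41, SE 0.059, adjusted p = 2.0e-04). Uqcrc1 was at 173.3 and 175.4 against 138 and 137.7 TPM, and Atp5b at 720.9 and 729 against 596.3 and 582.3 TPM, without overlap in either. Ndufa12 had the largest called difference (-0.51, SE 0.157, adjusted p = 0.023), and Sdhb, Sdhc and Sdhd of complex II were all lower, by 0.34, 0.26 and 0.19 on the log2 scale. Atp5sl was the 1 member that was higher (0.30, SE 0.105, adjusted p = 0.043), and not under median-ratio scaling.

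Before 24 h the genotypes differed in fewer members. At basal 0 were higher and 2 lower in Egr2MKO (against 5.95% and 5.56% of all genes), namely Atp5a1 (-0.20, adjusted p = 4.8e-04) and Atp5b (-0.19, adjusted p = 0.0047), the alpha and beta subunits of ATP synthase. Atp5a1 was at 428.8 and 432.7 TPM in Egr2WT and at 376.1 and 375.5 TPM in Egr2MKO. After 1 h, Ndufa7 was higher (0.30) and 4 were lower (against 6.04% and 5.37%), with Atp5a1 and Atp5b lower again, joined by Ndufs1 (-0.30) and Sdhc (-0.20). After 6 h, 6 were higher and 3 lower (against 11.5% and 9.12%), and 3 and 6 under median-ratio scaling, with Ndufs8 (-0.21), Ndufb5 and Cox6b2 the lower ones. Cox6b2, at 0 in both Egr2MKO libraries and 1.142 and 0.803 TPM in Egr2WT, is too low for a fold. Within Egr2WT itself, 0 members were called by limma at 1 h, where 8 had an unadjusted p under 0.05 (against 2.34% of all genes higher and 0.894% lower), and 14 rose and 2 fell at 6 h (against 16.2% and 9.21%), with 3 and 3 under the other scaling.

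The test of the difference in 24 h response between the genotypes called few members: 1 was larger in Egr2MKO (1.27%, against 8.78%) and 3 smaller (3.8%, against 3.85%), while median-ratio scaling gave 0 larger and 10 smaller. The larger on TPM as deposited was Ndufb11 (0.35, SE 0.099, adjusted p = 0.039), and the smaller were Cox7a2 (-0.38, SE 0.092, adjusted p = 0.018), Sdhb (-0.33) and Uqcrc1 (-0.26), the latter pair named after their values were seen. The median difference was -0.116. Leaving out 1 library gave between 0 and 4 calls for this difference. Summed macrophage markers at 24 h were 15680 and 15920 TPM in Egr2WT and 13070 and 13590 TPM in Egr2MKO. At basal they were 24690 and 26220 TPM in Egr2WT and 21020 and 21080 TPM in Egr2MKO. One of these markers is Lyz2, the lysozyme M gene from which Cre is expressed in Egr2MKO, so the sum is not independent of the genotype. The part of the markers in the result was not tested.

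**Figure D5:**
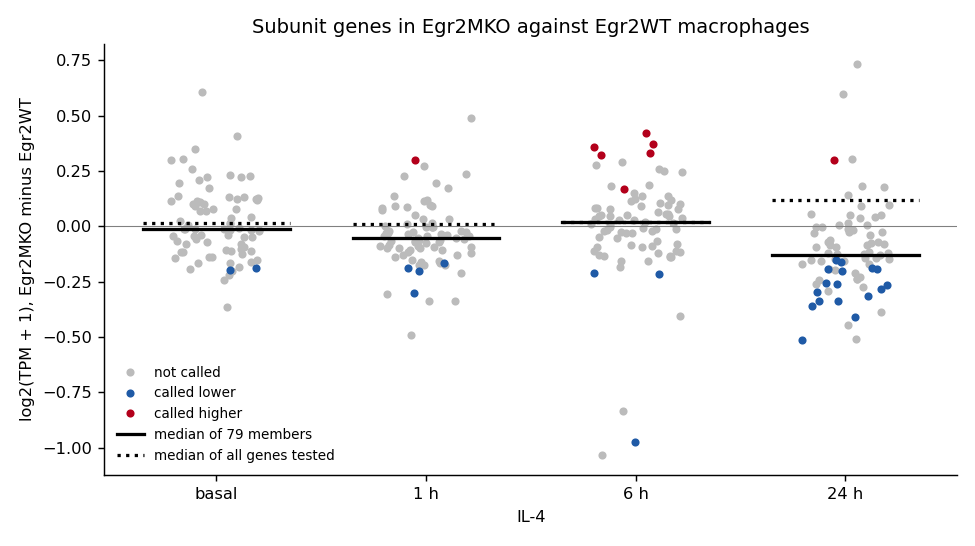
Difference of each member between Egr2MKO and Egr2WT on the log2(TPM + 1) scale (y axis) at each time of IL-4 (x axis), 1 point per gene, red where called higher, blue where called lower and grey where not called. Solid and dotted lines are the medians of the members and of all genes tested, which lie at -0.128 and 0.118 at 24 h, where 17 members are blue and 1 is red.

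Other mitochondrial genes were counted in the same way, to be read against 31.4% of all genes called higher and 12.9% lower in SPRET at 24 h in the strain table, and 14.8% and 21.8% in the time course. Of 13 enzymes of the tricarboxylic acid cycle, which supply the electrons, 12 rose (92.3%) and 0 fell in SPRET in the strain table (median 0.331) and 10 (76.9%) and 0 in the time course (median 0.276), while 2 rose and 3 fell in C57 in the strain table. Idh3a, a subunit of the NAD-dependent isocitrate dehydrogenase, rose by 1.19 in SPRET (SE 0.095, adjusted p = 1.4e-10) and by 0.35 in C57 (SE 0.095, adjusted p = 0.0055) in the strain table. Cytochrome c, Cycs, a carrier outside the name pattern, rose by 1.04 in SPRET (SE 0.111, adjusted p = 2.6e-08) and was at -0.08 in C57 (adjusted p = 0.63). Cox4i1 (-0.03, adjusted p = 0.69) and Ndufab1 (-0.44, adjusted p = 0.08), also outside the pattern, were not called in SPRET in that table. In the Egr2 table at 24 h, 6 cycle enzymes were lower in Egr2MKO and 2 higher, where 11.5% of all genes were lower and 25.9% higher. Among them Mdh2 was at -0.48 (adjusted p = 3.1e-07) and Suclg2 at 0.80.

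Of 15 complex I assembly factors, which help build the complex, 10 rose (66.7%) and 0 fell in SPRET in the strain table, but 1 rose and 1 fell (6.67% each) in the time course. Of 32 assembly factors of complexes II to IV, 15 rose (46.9%) and 0 fell in the strain table, and 2 rose (6.25%) and 3 fell (9.38%) in the time course. Mitochondrial ribosomal proteins gave 40 higher (51.3%) and 1 lower of 78 in the strain table and 11 (14.1%) and 3 (3.85%) in the time course. Of 15 regulators of mitochondrial biogenesis, 4 rose (26.7%) and 0 fell in the strain table, and 1 rose (6.67%) and 4 fell (26.7%) in the time course, so the 4 higher and the 4 lower were near the share over all genes. Ppargc1b, a coactivator of mitochondrial genes, rose in both (0.51 and 0.99). Cytosolic ribosomal proteins, which do not belong to mitochondria, gave 4 higher and 2 lower of 84 in the strain table and 1 higher and 19 lower of 83 in the time course.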

How the data were processed

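Poly(A) RNA of mouse bone marrow-derived macrophages was sequenced as stranded single-end libraries. Per the labels and the study's methods, the authors aligned reads with STAR to each strain's own genome, shifted them to mm10 coordinates and deposited TPM values per gene from HOMER, counted over exons with transcripts of a gene condensed. For the F1 cells the authors deposited allele-weighted values, treated here as a score with unknown depth. Their DESeq2 columns hold the authors' own comparisons and were not used; the C57 by NOD F1 and human tables were not analysed here. Deposited tag totals gave the depth (4690000 to 32900000 tags), which the TPM do not carry per gene, so intervals on counting error were not computed.

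Tests used limma 3.58.1 (R 4.3.3) on log2 of TPM plus 1, with 1 mean per group and all libraries of a table in the fit, over genes at 1 TPM or more in 2 libraries, adjusted over all of them (Benjamini-Hochberg, threshold 0.05). Python 3.11.15 and matplotlib 3.10.9 made the figures. The fit was tested on simulated data with known changes. Genes named were fixed by rule: the 2 called members with the largest change in each direction of the 24 h IL-4, basal strain and 24 h genotype comparisons, 1 in each direction of each response difference, the 3 highest and 3 lowest in basal C57, representative core subunits and paralogues (some genes under this rule are not reported here), the pattern genes failing the filter, Egr2, and up to 3 called examples per list. Small sets of called members outside this rule are named in full after their values were seen. The members and lists were chosen with earlier results of these data known. Replicate numbers were not taken as pairs, since no label gives a shared source and the deviations from group means of same-numbered libraries correlated at 0.013, 0.030 and -0.005 on average in the strain, time course and Egr2 tables, with values down to -0.13 or -0.14 in each. No libraries were identical. Alternatives were median-ratio scaling, pseudocounts of 0.1 and 5 TPM, no filter, a replicate block, and leaving out each library.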

Additional observations from a re-analysis of the deposited data

Results flagged for a closer look

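The response of the members to 24 h of IL-4 differed between groups in the tests of the difference itself. Against C57, the response was called different for 21 members in BALB, for 18 in NOD, for 15 in PWK and for 32 in SPRET of the strain table, as well as for 32 in SPRET of the time course. Between Egr2MKO and Egr2WT it was 4. Of all genes, 5.43% had a larger and 10.4% a smaller response in BALB, 26% and 7.32% in NOD, and 16.8% and 5.58% in PWK. In SPRET these shares were 24.4% and 8.94% in the strain table and 12.8% and 16.1% in the time course. Between the genotypes they were 8.78% and 3.85%. On TPM as deposited, the members' shares lay below those of all genes in both directions in NOD (19% and 3.8%). Between the genotypes the larger share lay below (1.27%) and the smaller share was near that of all genes (3.8%). Median-ratio scaling gave 2 larger and 15 smaller members in NOD, where 1317 and 1824 of 11907 genes were called. It gave 0 and 10 members between the genotypes, where 614 and 740 of 12079 genes were called. The members with the largest called difference in each direction were Ndufb2 (1.25) and Ndufv3 (-0.33) in BALB, Uqcrb (0.67) and Ndufv3 (-0.39) in NOD, Atp5s (0.74) and Cox6a2 (-0.85) in PWK, and Uqcrb (1.08) in SPRET, all on the log2 scale against C57. In the time course they were Uqcrh (1.18) and Cox6a2 (-1.20) in SPRET against C57, and in the Egr2 table Ndufb11 (0.35) and Cox7a2 (-0.38) in Egr2MKO against Egr2WT. Groups of 2 or 3 libraries were too small for a test of single outlying libraries. Why these responses differ was not tested.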

How the results depend on the processing

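No named change of a single member turned its sign under any alternative; Cox6b1 in basal NOD, outside those, was called lower on TPM as deposited and higher under median-ratio scaling. That scaling turned the balance of higher to lower calls from 18 and 3 to 3 and 18 in NOD at 24 h, from 9 and 5 to 2 and 8 in PWK, from 8 and 13 to 9 and 7 in C57, from 15 and 3 to 2 and 15 in the NOD response, from 10 and 5 to 1 and 8 in the PWK response, from 15 and 34 to 21 and 18 in basal PWK, from 4 and 1 to 3 and 4 in Egr2MKO at 24 h and from 6 and 3 to 3 and 6 between the genotypes at 6 h. It moved 14 counts of higher and 18 of lower calls by over 1.5 times. Totals of both directions not listed here stayed within 1.5 times their value. It moved the total of members called after 24 h in SPRET from 51 to 23, in the PWK response from 15 to 9, in the SPRET response of the strain table from 32 to 14, in Egr2WT at 6 h from 16 to 6 and at 24 h from 15 to 24, in Egr2MKO against Egr2WT at 24 h from 18 to 34, and in their response difference from 4 to 10. With no filter on low values the response difference gave 2. The replicate block gave 10 in place of 6 for C57 at 6 h in the time course and 1 in place of 0 for SPRET at 1 h, and changed no other count by over 1.5 times; 14 of 29, 14 of 16 and 4 of 16 libraries correlated best with their own number in the strain, time course and Egr2 tables, a hint of shared deviations in the time course.

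Leaving out 1 library at a time gave 5 to 11 for PWK at 24 h (lowest without basal PWK replicate 2), 11 to 23 for the BALB response, 5 to 14 for the PWK response (5 or 6 without either basal PWK library, 6 without treated C57 replicate 3, 7 without treated PWK replicate 2), 2 to 10 for C57 at 6 h in the time course (2 and 10 without basal replicate 2 and 1, 3 without 6 h replicate 1), 0 to 1 for SPRET at 1 h, 6 to 12 for Egr2WT at 6 h (6 without basal replicate 1, 9 without basal replicate 2 or 6 h replicate 1), 2 to 7 for Egr2MKO at 24 h (2 without basal replicate 1, 3 without basal replicate 2 or 24 h replicate 1), 3 to 4 for the genotypes at 1 h (3 without either Egr2WT library or Egr2MKO replicate 1), 5 to 16 at 6 h (16 without Egr2MKO replicate 1, 5 without either second replicate), 10 to 14 at 24 h (10 without either Egr2WT library) and 0 to 4 for their response difference (0 without Egr2WT 24 h replicate 1, Egr2WT basal replicate 1 or Egr2MKO basal replicate 2). A group left with 1 library is assumed to vary like the others. The 24 h rise in SPRET kept 41 to 50 of its calls in the strain table and 31 to 40 in the time course. Among changes of single named members, 57 kept and 10 lost their call under median-ratio scaling. Over all libraries left out in turn such calls were kept 340 times and lost 60 times. TPM carry no counts per gene, so the precision of low genes rests on the spread between 2 or 3 libraries alone. The cause of these shifts was not tested.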
